A study of Mus musculus with 2 samples.

Results

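Prostaglandin and leukotriene synthesis and the sensing of prostaglandin E2 are followed here through 10 genes, chosen by name as enzymes and receptors of this pathway out of the 20651 genes read by the arrays. These genes were read by 11 probes, of which 2 belong to *Ptges*, and all 10 genes were well above background on both arrays. The 10 genes did not move as 1 block in RAW264.7 cells treated with IR-61. The signal of *Pla2g4a*, *Ptgs1*, *Alox5*, *Alox5ap*, *Lta4h* and *Ptges* was higher with IR-61 than with vehicle, with scaled log2 differences between 0.21 and 1.02, while *Ptger4*, *Ptgs2*, *Ptger2* and *Ptges2* were lower, with differences between −1.35 and −0.13, although *Ptger2* and *Ptges2* were higher without the scaling between arrays.

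RAW264.7 is an established mouse macrophage line from a male BALB/c animal, grown from an ascites tumor that the Abelson murine leukemia virus had induced. For the gene microarray, 1 culture received vehicle control and 1 culture received 10 μM IR-61, each for 24 h. IR-61 is a near-infrared fluorescent small molecule, and the labels name no other agent for either culture. With 1 single-color array per condition there was no replicate error between cultures, so no test was run, no p-value is given, and an effect of IR-61 cannot be told apart from a difference between these cultures or arrays. In addition, a virus-transformed line stands in for tissue macrophages only in part, and fewer cells and less RNA per cell cannot be told apart.

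The pathway begins when cytosolic phospholipase A2, the product of *Pla2g4a*, releases arachidonic acid from membranes. Cyclooxygenases (*Ptgs1* and *Ptgs2*) turn it into prostaglandin H2, and the synthases of *Ptges* and *Ptges2* convert this to prostaglandin E2, which macrophages sense through the receptors of *Ptger2* and *Ptger4*. In the other branch, 5-lipoxygenase (*Alox5*) with its activating protein (*Alox5ap*) makes leukotriene A4, and the hydrolase of *Lta4h* turns it into leukotriene B4, a chemoattractant. *Ptgs2* is the inducible cyclooxygenase of inflamed macrophages, and *Ptgs1* is usually the constitutive one.

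The IR-61 array was brighter as a whole. Its 75th percentile lay 0.49 above that of the vehicle array on the log2 scale, a 1.40-fold brighter signal. Scaled values are therefore log2 signals minus the 75th percentile of the array, and each difference given is the IR-61 value minus the vehicle value. Of the 6 macrophage markers with a probe, all 6 were flagged as detected (well above background) on both arrays, with signals from 790 to 149992. Their differences ranged from −0.83 for *Spi1* to 1.03 for *Adgre1*. Signals and summed signals of markers are given before scaling, so the 1.40-fold brighter IR-61 array enters them, while differences are scaled. Of 5 mast cell markers, 3 were detected with vehicle and 4 with IR-61, with summed signals of 579 and 847. Single mast cell markers moved in opposite directions under these sums. *Fcer1a* had a signal of 7.58 with vehicle, not well above background, and 144 with IR-61, *Cpa3* had 109 and 53.8, and *Kit* was not well above background on either array. Of the 4 neutrophil markers with a probe, all 4 were detected on both arrays, with summed signals of 11938 and 20185. All 3 fibroblast markers were also detected on both arrays, with summed signals of 43036 and 82761 and differences from 0.10 for *Col1a2* to 0.62 for *Col1a1*. The 4 B cell markers were detected on both arrays, with summed signals of 870 and 679 and differences down to −1.46 for *Ms4a1* and −1.09 for *Cd79b*. Of 4 T cell markers 3 were detected on both arrays, with summed signals of 2090 and 3041 and differences from −0.004 to 0.16. Of 4 epithelial markers 2 were detected on both arrays, with summed signals of 262 and 268 and differences from −0.51 to −0.41. The part of other cell markers in the results was not tested.

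**Figure D1:**
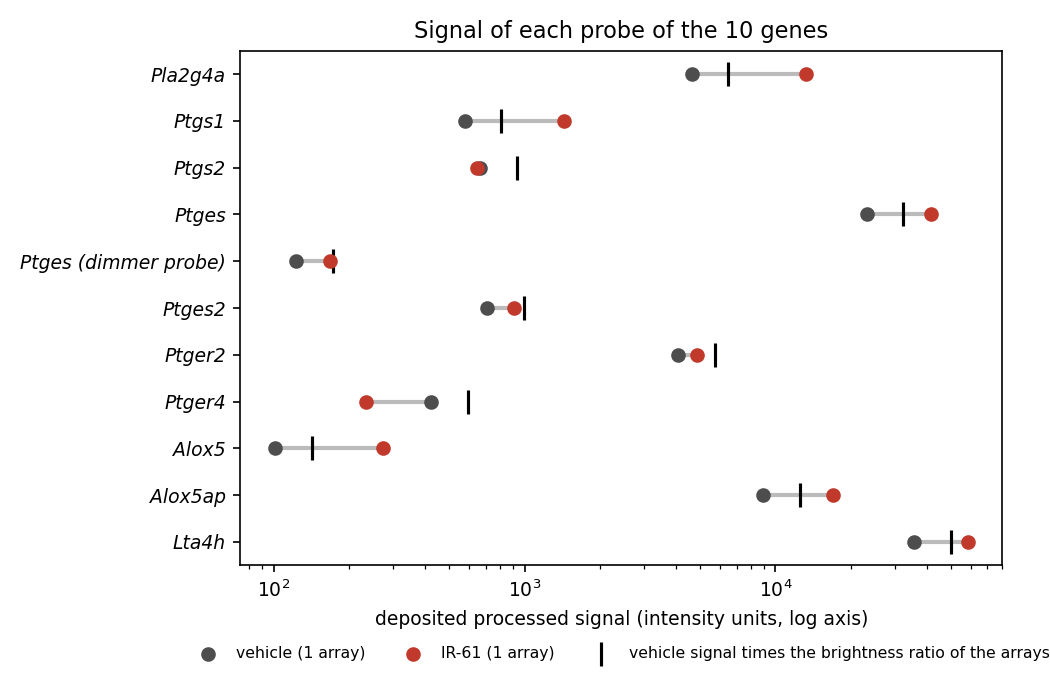
Deposited signal of each probe of the 10 genes with vehicle (grey) and IR-61 (red), 1 array each, on a log axis in intensity units. The black tick is the vehicle signal times 1.40, the brightness ratio of the arrays. Red points lie to the right of the tick for *Pla2g4a*, *Ptgs1*, *Alox5*, *Alox5ap*, *Lta4h* and the brighter *Ptges* probe and to the left for the others; distances between rows compare different probes and carry no meaning.

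Release of arachidonic acid and the cyclooxygenases came first in the comparison. *Pla2g4a* had a signal of 4627 with vehicle and 13187 with IR-61. Its scaled log2 difference was 1.02, a 2.03-fold higher signal, and spots of 1 probe vary enough to give such a difference an SD of 0.094 (the expected SD). Of the 16885 genes measured on both arrays, 1.81% had a higher difference. *Ptgs1* had a signal of 576 with vehicle and 1438 with IR-61, a scaled difference of 0.83 with an expected SD of 0.19, or 1.78-fold higher. Both genes were thus brighter with IR-61 by more than the array as a whole.

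*Ptgs2* was printed 10 times on each array and is the only gene of the 10 with spots of its own to compare. Its used spots had signals from 601 to 734 with vehicle, with a median of 670 over 8 spots. With IR-61 they ranged from 580 to 686, with a median of 651 over 9 spots. As deposited, the spots of both arrays overlapped almost entirely, and the mean log2 signal differed by −0.041. After scaling, the mean ± SD between spots was −0.93 ± 0.096 with vehicle and −1.46 ± 0.081 with IR-61, and no spot of the IR-61 array reached a spot of the vehicle array, from −1.07 to −0.78 with vehicle and from −1.61 to −1.37 with IR-61. The scaled log2 difference was −0.53, a 1.44-fold lower signal, with an expected SD of 0.079. The *Ptgs2* signal therefore stayed level between arrays while the arrays as a whole did not, and its lower value rests on the scaling. Among 330 probes with 5 or more used spots on both arrays, 10.3% had a lower difference than *Ptgs2*, so a difference of this size was not rare on the same arrays.

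**Figure D2:**
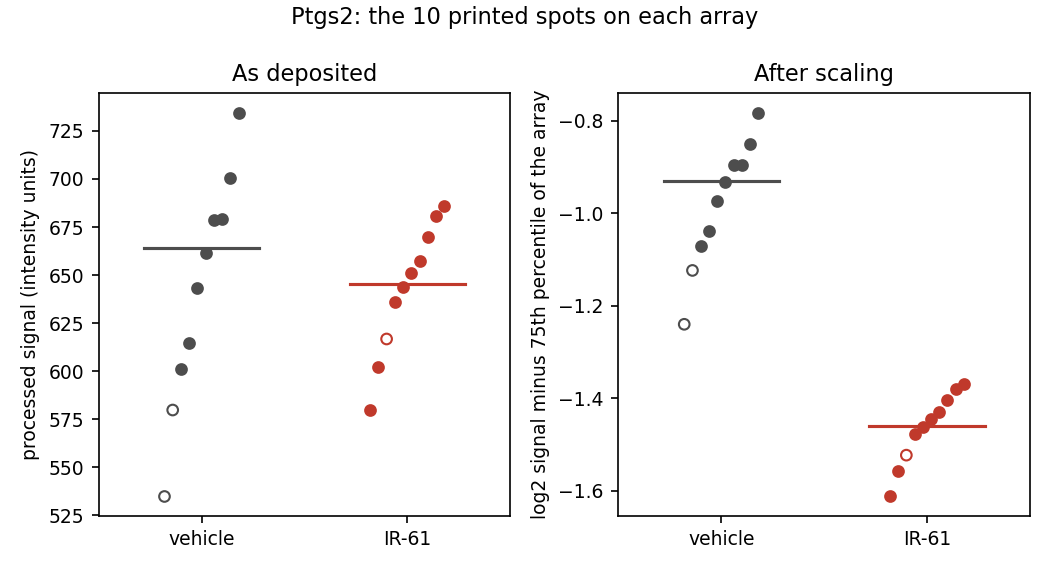
The 10 printed *Ptgs2* spots on each array, sorted within an array, as deposited (left, intensity units) and after scaling to the 75th percentile of the array (right, log2). Open circles are spots with an outlier flag, which were left out, and lines are means of the used spots; the arrays overlap on the left and do not on the right.

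The prostaglandin E2 synthases differed little. The brighter *Ptges* probe had a signal of 23062 with vehicle and 41692 with IR-61, a scaled difference of 0.37 with an expected SD of 0.094. The dimmer *Ptges* probe had 122 and 167, a difference of −0.04 with an expected SD of 0.23, so only the brighter probe was higher with IR-61 beyond the spread between spots. The probes of *Ptges* lay 0.41 apart, against a median gap of 0.33 over 3493 genes with 2 measured probes. *Ptges2* had signals of 708 and 911 and a difference of −0.13, within its expected SD of 0.23.

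The receptors for prostaglandin E2 were both lower with IR-61 after scaling, by unequal amounts, and *Ptger2* was higher without scaling (0.25). *Ptger4* had a signal of 424 with vehicle and 234 with IR-61, and was dimmer on the IR-61 array before any scaling as well, by a log2 difference of −0.86, beside −0.041 for *Ptgs2* and values over 0 for the other 8 genes. Its scaled difference was −1.35, a 2.54-fold lower signal, with an expected SD of 0.23, and it took rank 108 of the 16885 measured genes from the largest fall. *Ptger2* had signals of 4100 and 4868 and a scaled difference of −0.24 with an expected SD of 0.094, or 1.18-fold lower.

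All 3 genes of the leukotriene branch were higher with IR-61. As 61.2% of all measured genes had a difference over 0, the shared direction is no result about the branch. *Alox5* had a signal of 101 with vehicle and 273 with IR-61, a scaled difference of 0.94 with an expected SD of 0.23, or 1.92-fold higher. With normexp background correction, which changes dim probes most, the difference of *Alox5* was 0.61. *Alox5ap* had signals of 8942 and 16926 and a difference of 0.43 with an expected SD of 0.094. For *Lta4h* the signals were 35817 and 58306, and the difference was 0.21 with the same expected SD. The log2 differences in this branch thus ran from close to 2-fold for *Alox5* to 1.16-fold for *Lta4h*.

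**Figure D3:**
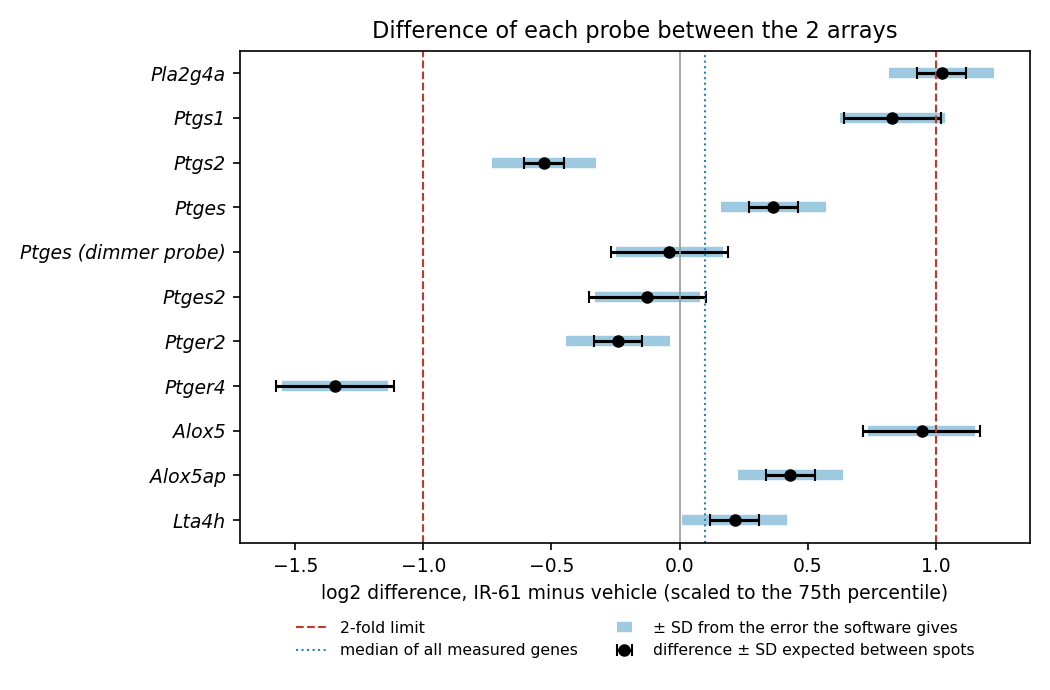
Scaled log2 difference (IR-61 minus vehicle) of each probe of the 10 genes. Black bars are the expected SD from spot to spot and blue bars the SD from the error that the scanner software gives, dashed lines the 2-fold limits and the dotted line the median of all measured genes, 0.10; *Ptger4* lies past the lower limit, *Pla2g4a* at the upper one, and all other points lie between the limits.

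Of the 10 genes, 1 (*Ptger4*) was at least 2-fold lower, against 1.39% of all measured genes, and 1 (*Pla2g4a*) was at least 2-fold higher, against 1.99%. With only 10 genes these counts have no error rate. A difference over 0 was seen in 6 of the 10 genes, and in 61.2% of all measured genes. The median difference of the 10 genes was 0.29, and that of all measured genes was 0.10. *Pla2g4a* at 1.02 and *Alox5* at 0.94 lay on either side of the 2-fold limit by less than their own expected SD. The software gives an error of its own for each spot, from which the SD of a difference was between 0.204 and 0.209 for the 11 probes. That SD was wider than the expected SD between spots for *Pla2g4a* and *Ptgs1*, but narrower for *Ptger4* and *Alox5* (0.23 between spots). By the software's SD the differences of *Ptger4*, *Pla2g4a*, *Alox5* and *Ptgs1* were 6.55, 5.01, 4.53 and 4.07 times the SD. Those of *Ptger2*, *Lta4h* and *Ptges2* were at most 1.18 times. Set against the 500 genes of most similar signal, *Ptgs1*, *Pla2g4a* and *Alox5* lay 0.85, 0.84 and 0.84 above the median, *Ptgs2* 0.52 below it (−0.52) and *Ptger4* 1.40 below it (−1.40).

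The direction of 2 low differences depended on the scaling. Without scaling, *Ptger2* (0.25) and *Ptges2* (0.36) were higher with IR-61 and *Ptgs2* was at −0.041. The median of all measured genes was then 0.59, so these 3 genes stayed below it, as did *Ptger4* at −0.86. *Pla2g4a*, *Ptgs1*, *Alox5*, *Alox5ap*, *Lta4h* and *Ptges* were higher with IR-61, and *Ptger4* and *Ptgs2* lower, under each of the 12 settings. Without scaling, however, the value of *Ptgs2* lay within its expected SD of 0.079. The 2-fold limit was passed by *Ptger4* in 11 of the 12 settings and by *Pla2g4a* in 7, and the range of *Pla2g4a* was 0.94 to 1.51. Of these 7, all but the one without scaling kept the main scaling and gave 1.02 for *Pla2g4a*. The other scalings (median, 75th percentile over detected probes, quantile, deposited values and loess) put *Pla2g4a* between 0.94 and 0.99, under the limit.

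**Figure D4:**
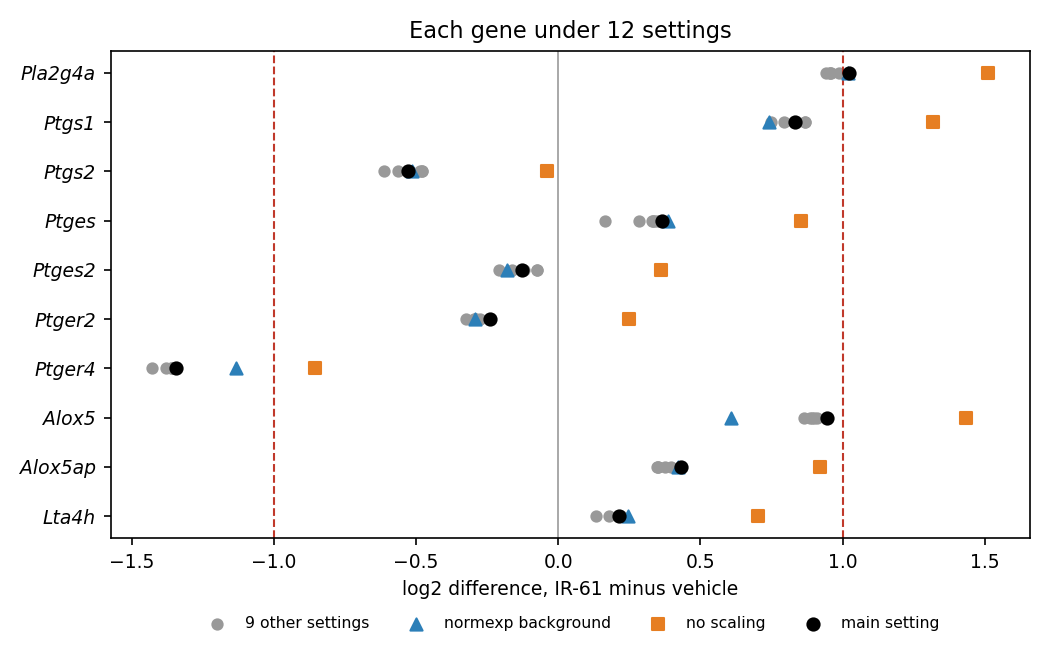
Log2 difference (IR-61 minus vehicle) of each gene under 12 settings, with 1 point per setting and dashed lines at the 2-fold limits. Orange squares, without scaling, lie to the right of the main value by 0.49 for every gene; the blue triangle of *Alox5*, with normexp background correction, lies at 0.61.

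The start regions of *Ptgs2*, *Pla2g4a* and *Ptger4* are shown because these are the inducible cyclooxygenase and the 2 genes past the 2-fold limit. The sequences are from RefSeq (GRCm38.p6), run from 220 bases before to 30 after the annotated start, and have matches to 6 searched motifs in capitals.
Ptgs2, chr1:150099811-150100060, plus strand: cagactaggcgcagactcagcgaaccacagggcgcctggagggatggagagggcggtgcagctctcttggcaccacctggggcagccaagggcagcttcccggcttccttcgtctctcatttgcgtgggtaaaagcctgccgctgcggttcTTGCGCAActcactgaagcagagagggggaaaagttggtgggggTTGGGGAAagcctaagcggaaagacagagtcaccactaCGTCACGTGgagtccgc
Pla2g4a, chr1:149961261-149961510, minus strand: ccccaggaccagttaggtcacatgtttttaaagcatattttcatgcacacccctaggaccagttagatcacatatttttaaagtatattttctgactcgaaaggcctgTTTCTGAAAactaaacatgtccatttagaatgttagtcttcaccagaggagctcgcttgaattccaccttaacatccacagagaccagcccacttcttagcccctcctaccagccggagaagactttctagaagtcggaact
Ptger4, chr15:5244158-5244407, minus strand: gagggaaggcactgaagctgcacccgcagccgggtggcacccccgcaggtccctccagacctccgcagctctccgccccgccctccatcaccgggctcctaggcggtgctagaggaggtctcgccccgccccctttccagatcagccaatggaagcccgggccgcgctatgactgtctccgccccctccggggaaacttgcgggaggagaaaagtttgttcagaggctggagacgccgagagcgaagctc
Both strands of the whole 300-base windows were searched for 6 motifs, of which that of NF-κB was searched by its consensus. Each window ran from 250 bases before to 50 bases after the annotated start, and sequence beyond it was not searched. Positions are counted from that annotated start. The letters searched for the C/EBP family were TTNNGNAA on either strand. For the E-box, which basic helix-loop-helix proteins bind, the letters were CACGTG on either strand. The core of the cyclic AMP response element, called the CRE core here, was searched as TGACG in both orientations. Factors of the AP-1 family, such as Fos and Jun proteins, were represented by TGANTCA in the same windows. The box of the basal promoter near many start sites was searched as TATAAA on both strands. The *Ptgs2* window held the C/EBP letters at bases −69 to −62 and −25 to −18, and an E-box at bases 17 to 22 that overlapped a CRE core on the other strand at 14 to 18. The *Pla2g4a* window held overlapping C/EBP matches between −112 and −104, and the *Ptger4* window none of the 6 motifs. Of all 32851 windows in the table, 40.7% held the C/EBP letters, 7.15% the E-box, 20.8% the CRE core, 7.81% the AP-1 letters, 13.6% the TATA letters and 4.51% the NF-κB motif, which was in none of the windows of the 9 genes with an entry. The windows of *Ptges*, *Ptges2* and *Ptger2* also held the C/EBP letters, and that of *Ptges2* an E-box. The second start of *Pla2g4a* had TATA letters on the other strand at bases −200 to −195, not close to the start. These matches describe letters only. *Pla2g4a* and *Ptgs2* are neighbors on chromosome 1 with no protein-coding gene between them in the table, and their scaled differences had opposite signs, 1.02 and −0.53.

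Of 53 other genes of eicosanoid handling, 52 had a probe and 41 were measured on both arrays. Of these 41, 2 were at least 2-fold higher with IR-61 (4.88%) and 1 was at least 2-fold lower (2.44%), beside 1.99% and 1.39% of all measured genes, and their median difference was 0.18. The gene with the highest difference was *Hpgd*, which encodes 15-hydroxyprostaglandin dehydrogenase, the enzyme that inactivates prostaglandin E2. Its brighter probe had a signal of 67.0 with vehicle and 415 with IR-61, and its other probe 57.3 and 374. The scaled differences were 2.14 and 2.22, with expected SDs of 0.23 and 0.39, equal to 4.42-fold and 4.65-fold higher signals. These 2 probes lay 0.07 apart, and *Hpgd* took rank 12 of the 16885 genes from the largest rise.

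*Mgst2*, a microsomal glutathione transferase that can make leukotriene C4, had signals of 182 and 730 and a scaled difference of 1.52 with an expected SD of 0.23. *Lpcat3*, which loads arachidonic acid back into phospholipids, was the gene with the lowest difference, with signals of 1630 and 983 and a scaled difference of −1.22 with an expected SD of 0.16. Under the settings tried, *Hpgd* ranged from 1.40 to 2.63, *Mgst2* from 1.17 to 2.01 and *Lpcat3* from −1.30 to −0.73. *Hpgd* was not counted where a signal of at least 100 was required on both arrays, since its vehicle signal was 67.0, and *Lpcat3* did not pass the 2-fold limit without scaling. Past these 3, the measured genes lay within the 2-fold limit.

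By role, the 4 measured leukotriene receptors and related genes had differences from 0.24 to 0.79 and lay over 0 under each scaling. With 61.2% of all measured genes over 0, that shared sign is no result about these genes. *Cysltr2* (0.24, expected SD 0.23), *Ltb4r2* (0.27, 0.23) and *Ltb4r1* (0.56, 0.39) lay near their expected SD. Only *Cysltr1* (0.79, 0.19) lay well beyond it. The 5 measured genes of prostaglandin transport and breakdown also lay over 0, from 0.04 to 2.14, but 3 did with scaling by the median, and 4 with quantile normalization, the deposited values, normexp, the mean over detected probes and loess. The highest of the receptors was *Cysltr1*, for cysteinyl leukotrienes, whose probes had differences of 0.79 and 0.86. The 8 prostanoid synthases ranged from −0.79, for the prostaglandin D2 synthase *Ptgds*, to 0.29, and the 9 phospholipases and genes of arachidonate handling from −1.22 to 0.50. These ranges use the brightest probe of each gene. Probes of *Ptges3* disagreed in sign, with 0.27 for the brightest and −0.33, 0.07 and −0.29 for the others. So did those of *Pla2g7* (0.35 for the brighter and −0.23), *Pla2g2d* (−0.35 and 0.24) and *Alox12b* (−0.18 and 0.92). Probes of *Pla2g5*, *Akr1b3* and *Ptgr2* differed in sign as well, so counts over 0 depend on the probe chosen. Of the 7 measured genes listed under cysteinyl leukotriene synthesis and breakdown 5 lay over 0. They include *Cyp4f18* (0.60), which belongs to the breakdown of leukotriene B4 instead. Of all 41 genes 28 lay over 0, beside 61.2% of all measured genes, so 5 of 7 is no result about these genes. *Anxa1*, whose protein restrains phospholipase A2, had a brighter probe at −0.12 and a dimmer one at −0.44, and both were higher without scaling (0.37 and 0.052). The higher value of *Anxa1* and its receptor gene also lay over 0 with quantile normalization (0.023) and the deposited values (0.027). Probes of *Alox15*, *Ptgdr2*, *Ggt5* and *Gpr17* were well above background with IR-61 only, with dim signals of 17.9, 19.6, 18.5 and 20.9. The computed bounds were 1.11-fold, 1.22-fold, 1.16-fold and 1.30-fold higher signals. On the log2 scale these bounds were 0.16, 0.29, 0.21 and 0.38. Each lay below the expected SD of 0.47, so they set no lower limit on a rise. The 7 genes not well above background on either array were *Pla2g4c*, *Pla2g10*, *Ptgdr*, *Ptgfr*, *Alox12*, *Alox8* and *Ggt1*.

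**Figure D5:**
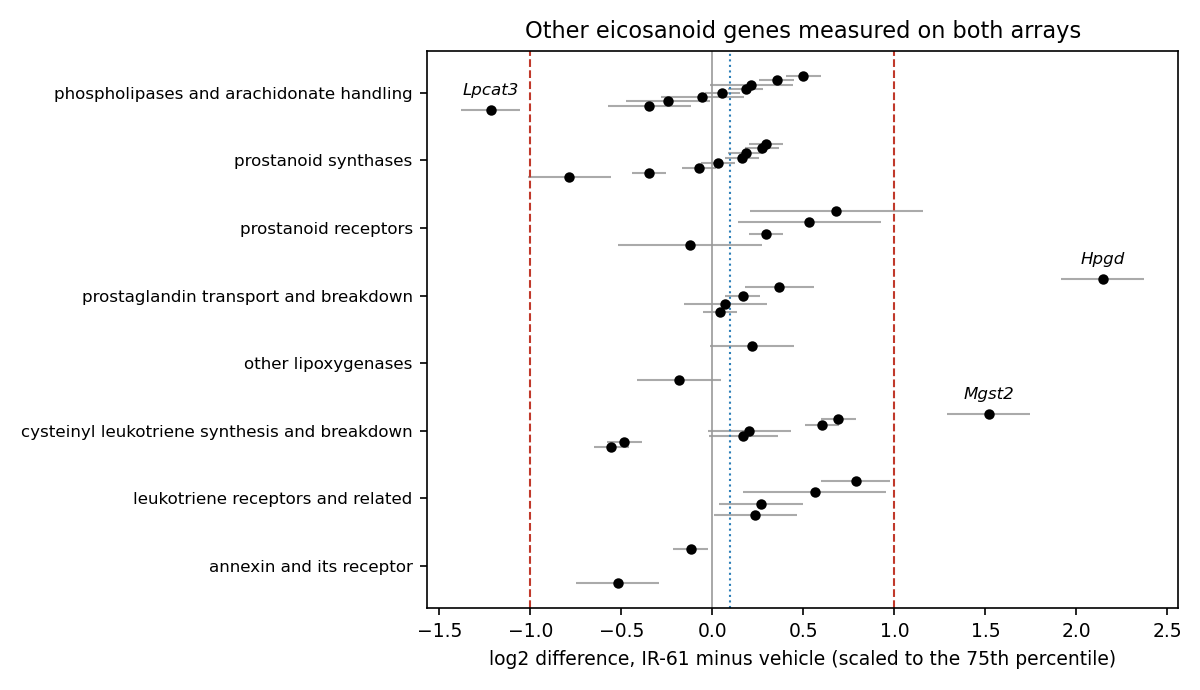
Scaled log2 difference (IR-61 minus vehicle) of the 41 other eicosanoid genes measured on both arrays, 1 point per gene by role, with bars for the expected SD from spot to spot. Dashed lines are the 2-fold limits and the dotted line is the median of all measured genes; *Hpgd* and *Mgst2* lie past the upper limit and *Lpcat3* past the lower one.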

How the data were processed

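The authors labelled the RNA with Cy3, hybridized it to a single-color Agilent mouse array, and deposited the intensity of each spot after background subtraction and detrending within the array, with no scaling between arrays. A table of log2 values, 1 per probe, was deposited by the authors as well, and its method is not given in the sources used here. Both columns share a median of 7.15, and they followed the log2 intensities with a Pearson r across probes of 0.9995 (vehicle) and 0.9988 (IR-61), so they are log2 intensities normalized between the arrays. The file headers name Feature Extraction 11.0.1.1 and the labels, per the submitters' processing notes, 11.0.0.1.

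Control and outlier spots were removed, and log2 intensities were averaged per probe and scaled by the 75th percentile of all probes. Gene names came from matching accessions without version to RefSeq (GRCm38.p6, used for names), and 27218 of 39419 probes were named. The brightest probe stood for a gene, and every probe of the 10 genes is given. A gene was measured if that probe was well above background on both arrays, where 77.6% (vehicle) and 81.2% (IR-61) of probes were so flagged and no spot was saturated. Where only the IR-61 signal was well above background, a bound was computed against the vehicle signal or, if higher, the dimmest detected signal of that array. The spread between spots came from probes printed 10 times, by signal, and covers noise within an array only. Precision is limited by having 1 array per condition.

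The genes and lists were chosen with earlier results of these data known. The named genes were the 10 genes, those of the other pathway genes past 2-fold or at either end, and cell type markers, of which 1 was left out of all counts and is not reported here. *Cysltr1*, *Cysltr2*, *Ltb4r1*, *Ltb4r2*, *Ptgds*, *Anxa1* and *Cyp4f18* were named after their values were seen. The same holds for *Ptges3* and the other genes with probes of opposite sign, and for the genes with bounds or without detection. The loess setting, the comparison with 500 genes of like signal and the probe gaps were also chosen after that. The alternatives were other scalings, the deposited values, normexp (offset 50) on the spot median, outlier spots kept, the mean over detected probes, other filters on dim probes and a 3-fold limit. The steps were tested on simulated data in which every planted change was well past the 2-fold limit. Differences near that limit and false calls among unchanged genes were not covered. Python 3.11.15, numpy 2.4.6, pandas 2.3.3, statsmodels 0.14.6, matplotlib 3.10.9, R 4.3.3 and limma 3.58.1 were used.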

Additional observations from a re-analysis of the deposited data

How the results depend on the processing

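No paired analysis was possible because there was only 1 array for vehicle and 1 for IR-61. The signs of the 10 genes held under the 11 alternatives to the scaling and the processing, except those of *Ptger2* and *Ptges2* without scaling. The value of *Ptgs2* without scaling, −0.041, lay within its expected SD of 0.079. The filters on dim probes changed none of these differences, and the mean over detected probes changed only that of *Ptges*. The number of genes lower by 2-fold or more stayed at 1 except without scaling (0) and with the 3-fold limit (0). The number higher was 1, but 0 with scaling by the median, by the 75th percentile over detected probes, with quantile normalization, the deposited log2 values, loess (chosen after seeing the data) and the 3-fold limit, and 3 without scaling (*Pla2g4a*, *Alox5* and *Ptgs1*). The median of the 10 genes was 0.29, and moved to 0.78 without scaling and to 0.19 with the mean over detected probes. Of the other pathway genes 3 passed the 2-fold limit, 8 without scaling, 6 without a filter on dim probes, 2 with signals of at least 100 on both arrays (without *Hpgd*) and 1 past the 3-fold limit. Over all genes 571 passed it, 41.2% of them lower, against 2228 without scaling (3.23% lower), 273 with normexp (54.6%), 1361 without a filter on dim probes (32.3%), 316 with signals of at least 100 (50.6%) and 114 past the 3-fold limit (56.1%), and 54.2%, 52.1%, 51.4% and 52.2% were lower with scaling by the median, quantile normalization, the deposited values and loess. Without scaling the brightness of the array enters every difference; the cause of the other moves was not tested. Dim signals limit what the arrays can show, and the difference of *Alox5*, with a vehicle signal of 101, was 0.94, or 0.61 with normexp.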
